A study of Mus musculus with 9 samples.

Results

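Proximal T cell receptor signalling is described here through 33 listed genes: the kinases, adaptors, co-receptors, enzymes, brakes and transcription factors that act just downstream of the receptor. They were found by gene name in a count table of 44806 entries. A total of 32 were present, and 32 of those 32 passed the filter on low counts, which kept 16596 genes in all. The listed gene Sh2d1a is not analysed here.

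RNA was sequenced from tumours that mice grew from MB49, a murine bladder carcinoma line, which in every group overexpressed the receptor HER2. Mice had received Lipo-TriTE, Lipo-BiTE or PBS, with 3 libraries each, and tumours were taken at the end of the experiment. A BiTE, or bispecific T cell engager, is a linked pair of antibody fragments that brings T cells up against tumour cells; the labels give no target, dose or schedule for either agent. A group given a carrier alone is not analysed here, so an effect of a carrier and of its cargo cannot be told apart. The design text names T cells sorted by CD3 as the material, whereas the labels and the extraction protocol describe whole frozen tumour, and no source says whether each library is a different animal; p-values therefore measure only the spread between these samples. The count columns for PBS carry the word untreated and were taken as PBS because no other group was left, which is an inference. The strain, age and sex of the mice are not stated.

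When a T cell receptor binds its ligand, the kinase Lck phosphorylates the CD3 chains, Zap70 docks on them and phosphorylates the adaptors Lat and SLP-76 (encoded by Lcp2), and these gather phospholipase C, Vav1 and other enzymes into a complex. Diacylglycerol and calcium then carry the signal to Ras, to NF-kappaB through Prkcq, Bcl10 and Malt1, and to NFAT. Phosphatases, ubiquitin ligases and diacylglycerol kinases act as brakes. Some of these proteins are found mostly in T and NK cells, and others are shared with myeloid cells, B cells or tissue cells. On general knowledge of where they are expressed, the 32 genes were split into 16 found mostly in T and NK cells and 16 also found in other leukocytes or tissues. No data on separated cells were used for this split. Expression in other cells, such as B cells or mast cells, is not excluded for the first set.

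The libraries held 13152783 to 20273548 counts, and a floor of 3 counts equalled 0.146 to 0.237 CPM (counts scaled to the library total after TMM); such floors cover counting error only. The 7 T cell markers, the CD3 chains and the constant segments of the receptor, were found in every library, with sums of 576 to 970 CPM in Lipo-TriTE, 118 to 226 in Lipo-BiTE and 23.6 to 29.6 in PBS. Epithelial markers summed to 396 to 677, 610 to 841 and 902 to 975 CPM in the same groups, so the libraries were not of T cells alone. Macrophage and monocyte markers summed to 496 to 690 CPM in Lipo-TriTE, 682 to 1624 in Lipo-BiTE and 89.4 to 149 in PBS. Neutrophil markers summed to 1239 to 4100, 1075 to 5956 and 125 to 282 CPM, and NK markers to 60.6 to 80.9, 32.3 to 54.7 and 13.4 to 14.6 CPM. B cell markers summed to 380 to 1042 CPM in Lipo-TriTE, 9.89 to 17.98 in Lipo-BiTE and 7.54 to 11.1 in PBS, with Cd79a and Cr2 at 0 in at least 1 library. Mast cell markers summed to 456 to 566, 71.8 to 162 and 54.4 to 132 CPM in the same groups, dendritic cell markers to 273 to 355, 47.8 to 61.4 and 22.6 to 32.2 CPM, and fibroblast markers to 89.6 to 135, 113 to 140 and 161 to 333 CPM. PBS 1 stood apart from PBS 2 and PBS 3 on the second principal component.

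Most of the genes were higher in tumours of either treated group than in PBS tumours. In Lipo-TriTE against PBS, 28 of 32 were called higher and 0 lower at an adjusted p under 0.05 in edgeR's quasi-likelihood test, where 18.9% of all 16596 genes were called higher and 14.8% lower. For Lipo-BiTE against PBS the counts were again 28 of 32 higher and 0 lower, where 13.8% of all genes were called higher and 3.22% lower. In Lipo-TriTE against Lipo-BiTE, 16 of 32 were called higher and 0 lower, where 4.88% of all genes were called higher and 5.21% lower. DESeq2 called 28, 28 and 19 higher and 0 lower in any of these, and at an unadjusted p under 0.05 edgeR gave 28, 28 and 21 higher and 0 lower. The count of 16 rests on single libraries: it was 9 without Lipo-BiTE 2 and ran from 9 to 20 over all libraries left out in turn. T cell, B cell, dendritic cell, mast cell and NK markers were higher in Lipo-TriTE than in Lipo-BiTE too, for 7 of 7, 7 of 7, 5 of 6, 3 of 4 and 1 of 4 genes tested, and those of macrophages and neutrophils for 0 of 7 and 0 of 5. Fibroblast markers were called lower for 3 of 6 genes in Lipo-TriTE and 4 of 6 in Lipo-BiTE against PBS. The part of these cells in the results was not tested. In bulk tissue, fewer cells of a type and less RNA per cell cannot be told apart.

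The median log2 fold change of the 32 genes was 3.98 for Lipo-TriTE versus PBS, 2.53 for Lipo-BiTE versus PBS and 1.35 for Lipo-TriTE versus Lipo-BiTE, against 0.0032, −0.023 and −0.013 over all genes tested. Libraries of the compared groups did not overlap, with the group named first higher, for 28 genes in the first comparison, 29 in the second and 19 in the third. Over all genes these shares were 26%, 22.7% and 16.1%. With the group named first lower there were 0 of the 32 genes in each, against 23.4%, 19.4% and 14.4% of all genes. The comparisons with PBS share their PBS libraries. Libraries were ordered alike across the genes: Lipo-TriTE 1 was the highest of its group for 30 of 32, Lipo-BiTE 1 for 30 of 32, Lipo-BiTE 3 the lowest of its group for 28 and PBS 1 the lowest of its group for 23.

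**Figure D1:**
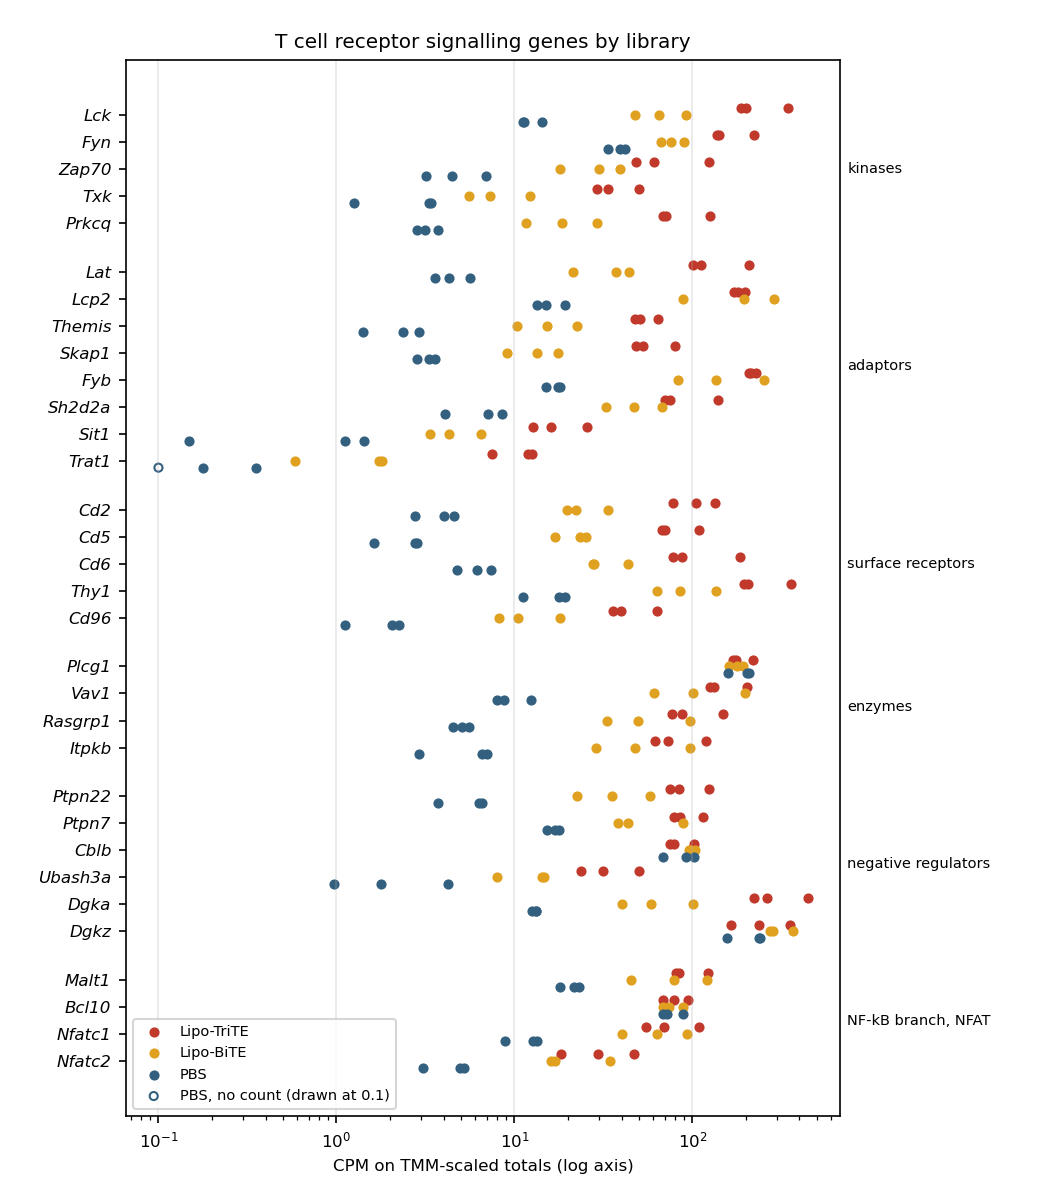
Level of each gene in each library, in CPM on TMM-scaled totals (log axis), in rows grouped by role; each point is 1 library, red for Lipo-TriTE, yellow for Lipo-BiTE and blue for PBS, and an open point marks a PBS library of Trat1 with no count. PBS points lie left of the others in nearly every row, whereas for Plcg1, Cblb, Dgkz and Bcl10 the points of the groups lie together.

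The counts were also taken by where the genes are known to be expressed. Of the 16 found mostly in T and NK cells, 16 were called higher for Lipo-TriTE versus PBS, 16 for Lipo-BiTE versus PBS and 12 for Lipo-TriTE versus Lipo-BiTE, with median log2 fold changes of 4.34, 2.67 and 1.92. Of the 16 also found in other cells, 12, 12 and 4 were called higher in the same comparisons, with medians of 2.79, 2.36 and 0.41. The ranges of the sets overlapped: for Lipo-TriTE versus PBS the log2 fold changes ran from 3.80 to 5.77 in the genes mostly of T and NK cells and from −0.039 to 4.57 in the others, and for Lipo-BiTE versus PBS from 1.64 to 3.56 and from −0.091 to 3.62. The difference between these sets was not tested. Plcg1, Cblb, Dgkz and Bcl10 made up the 4 genes called in neither comparison with PBS.

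Promoter sequence was set beside these changes for the 25 of 32 genes that RefSeq's table of the GRCm38.p6 assembly held, as windows from 250 bases before to 50 bases after the start. Where a gene had several starts, only its outermost window was used. The 4 windows below were chosen after the values were seen: Lat and Cd5 for their large rises, Plcg1 and Bcl10 for the lack of a call. Each is written 5′ to 3′ on the gene's strand, with every CG dinucleotide in capitals. The Lat window is chr7:126369519-126369818 on the minus strand, that of Cd5 is chr19:10738925-10739224 on the minus strand, that of Plcg1 is chr2:160731060-160731359 on the plus strand and that of Bcl10 is chr3:145924012-145924311 on the plus strand.
Lat: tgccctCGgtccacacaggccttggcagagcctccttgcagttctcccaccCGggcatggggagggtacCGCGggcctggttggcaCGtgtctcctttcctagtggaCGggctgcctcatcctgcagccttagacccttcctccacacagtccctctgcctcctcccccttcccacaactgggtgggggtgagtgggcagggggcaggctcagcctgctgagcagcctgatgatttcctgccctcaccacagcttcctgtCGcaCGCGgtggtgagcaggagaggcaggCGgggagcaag
Cd5: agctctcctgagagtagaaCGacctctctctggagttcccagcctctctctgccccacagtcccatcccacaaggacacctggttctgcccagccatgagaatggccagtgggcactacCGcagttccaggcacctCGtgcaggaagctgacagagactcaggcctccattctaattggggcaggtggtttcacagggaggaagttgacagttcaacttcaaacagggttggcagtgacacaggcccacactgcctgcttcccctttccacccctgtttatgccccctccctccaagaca
Plcg1: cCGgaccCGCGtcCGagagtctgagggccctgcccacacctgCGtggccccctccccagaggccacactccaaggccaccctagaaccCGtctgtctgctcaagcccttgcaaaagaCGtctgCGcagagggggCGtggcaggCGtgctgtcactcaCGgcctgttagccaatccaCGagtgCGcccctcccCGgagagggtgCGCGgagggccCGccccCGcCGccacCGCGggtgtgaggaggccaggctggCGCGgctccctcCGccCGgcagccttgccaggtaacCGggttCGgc
Bcl10: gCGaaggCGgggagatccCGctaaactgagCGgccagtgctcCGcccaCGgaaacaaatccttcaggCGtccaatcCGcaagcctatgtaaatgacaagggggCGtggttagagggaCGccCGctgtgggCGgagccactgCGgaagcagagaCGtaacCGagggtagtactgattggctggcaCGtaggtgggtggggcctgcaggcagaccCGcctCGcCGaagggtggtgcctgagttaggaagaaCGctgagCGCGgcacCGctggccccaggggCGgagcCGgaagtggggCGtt

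The windows of Lat and Cd5 held 10 and 3 CG dinucleotides, and those of Plcg1 and Bcl10 held 27 and 26. Among the 25 windows the median was 8 and the range 0 to 43, against a median of 7 over all 27025 windows. Those windows were not limited to genes that passed the filter on low counts, as all 25 did. The 4 genes called in no comparison had 17 to 43, with a median of 26.5, and the 21 others had a median of 6. A high count did not go with the lack of a call in every case: Prkcq with 37, Fyn with 31, Rasgrp1 with 26 and Nfatc2 with 23 were called higher in both treated groups. Of 3 short motifs searched on both strands, none containing another, AGGAAG, a core recognised by ETS factors, was found in 16 of 25 windows (64%) and in 35.1% of all windows. TGTGGT, a core recognised by RUNX factors, was found in 4 of 25 (16%), those of Lck, Lat, Trat1 and Cd96, and in 16.9% of all windows. TATAAA was found in 4 of 25 (16%) and in 14.2% of all. A match describes letters in these windows and was not tested as a site.

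**Figure D2:**
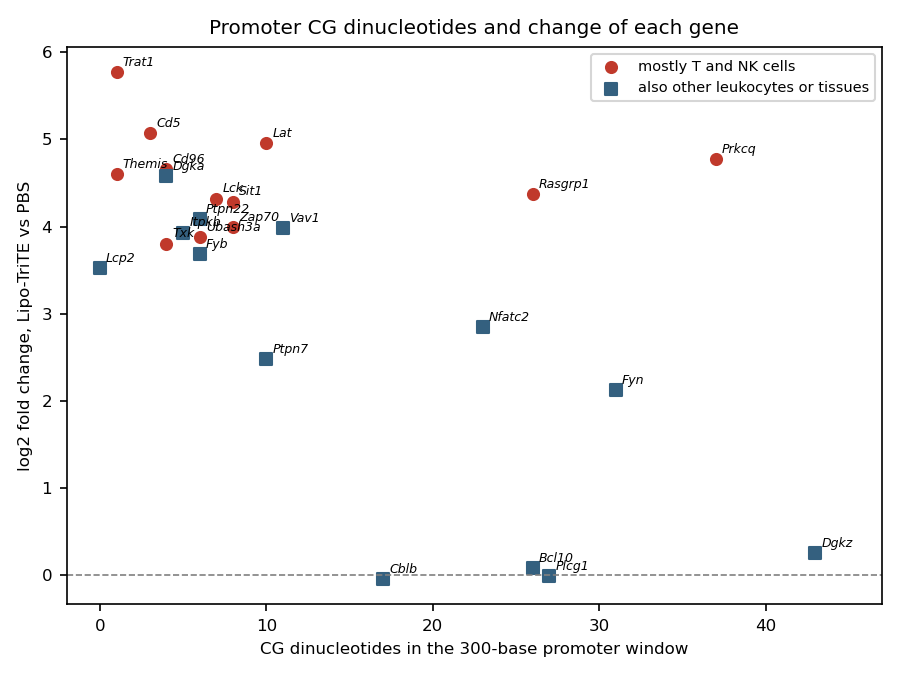
CG dinucleotides in the 300-base promoter window (x axis) against the log2 fold change of Lipo-TriTE against PBS (y axis) for the 25 genes with a window; red circles are genes mostly of T and NK cells and blue squares are genes also of other leukocytes or tissues. Genes near 0 on the y axis have 17 to 43 CG dinucleotides, and Prkcq, Rasgrp1, Fyn and Nfatc2 share that range with log2 fold changes above 2.

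All 5 receptor-proximal kinases rose in both treated groups, and 4 of 5 were also higher in Lipo-TriTE than in Lipo-BiTE. Lck, the Src-family kinase bound to CD4 and CD8, had 345.9, 200.9 and 188.1 CPM in Lipo-TriTE, 92.5, 64.5 and 47.4 CPM in Lipo-BiTE and 11.3, 11.2 and 14.3 CPM in PBS. The 3 groups did not overlap. Its log2 fold changes were 4.32 ± 0.32 (SE) for Lipo-TriTE versus PBS, 2.47 ± 0.30 for Lipo-BiTE versus PBS and 1.85 ± 0.29 for Lipo-TriTE versus Lipo-BiTE, with edgeR adjusted p of 2.53e-05, 0.000765 and 0.00604. Fyn, its relative with a wider distribution among tissues, had 222.1, 137.7 and 140.3 CPM in Lipo-TriTE, 89.5, 75.7 and 66.8 CPM in Lipo-BiTE and 33.6, 41.8 and 39.2 CPM in PBS. Its changes went the same way and were smaller, at 2.12 ± 0.21, 1.02 ± 0.20 and 1.11 ± 0.20 on the log2 scale (edgeR adjusted p 7.12e-05, 0.00611 and 0.00959).

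Zap70, the Syk-family kinase that binds phosphorylated CD3 chains, had 124.3, 60.5 and 48.4 CPM in Lipo-TriTE, 39.3, 30.0 and 18.1 CPM in Lipo-BiTE and 3.19, 6.91 and 4.46 CPM in PBS. It rose in both treated groups, by 3.99 ± 0.45 and 2.57 ± 0.43 on the log2 scale (edgeR adjusted p 0.000177 and 0.00269). Between the treated groups the log2 difference of 1.42 ± 0.40 lay at the threshold (edgeR adjusted p 0.05, not called), although the libraries did not overlap, and it was called by DESeq2 at an adjusted p of 0.00428. Prkcq, the protein kinase C isoform at the T cell synapse, had log2 fold changes of 4.77 ± 0.39, 2.62 ± 0.37 and 2.16 ± 0.34 and was called in all 3 comparisons. Txk, a Tec-family kinase, had 3.80 ± 0.42, 1.64 ± 0.41 and 2.16 ± 0.38 and was called in all 3 as well, but in Lipo-BiTE against PBS not without Lipo-BiTE 1 (edgeR adjusted p 0.0796). Between the treated groups, Fyn and Txk were not called without Lipo-BiTE 2 (edgeR adjusted p 0.055 and 0.0522), and Zap70 was called without Lipo-BiTE 1 (0.0377).

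**Figure D3:**
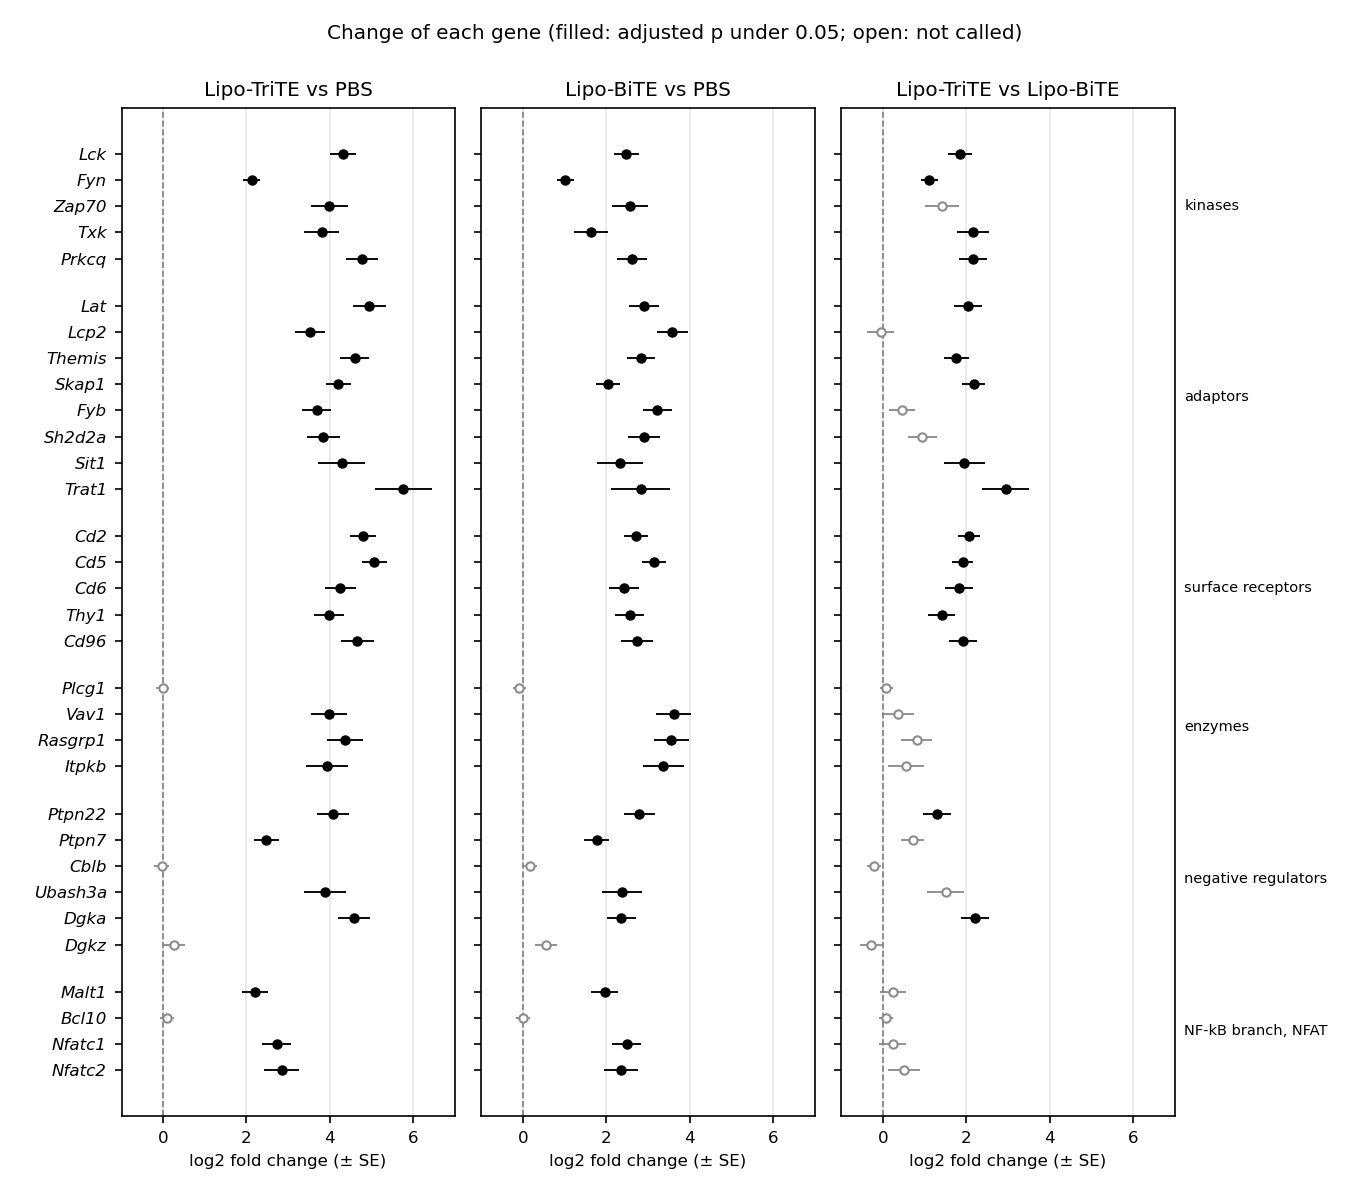
Log2 fold change of each gene (x axis, ± SE) for Lipo-TriTE versus PBS, Lipo-BiTE versus PBS and Lipo-TriTE versus Lipo-BiTE, from edgeR; filled points have an adjusted p under 0.05 and open points do not. In the panel of Lipo-TriTE against Lipo-BiTE, 16 of 32 points are open, among them all of the enzymes and exchange factors and all of the NF-kappaB branch and NFAT factors.

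All 8 adaptors rose in both treated groups, and 5 of 8 were higher in Lipo-TriTE than in Lipo-BiTE. Lat, the membrane scaffold phosphorylated by Zap70, had 208.2, 101.1 and 111.6 CPM in Lipo-TriTE, 43.9, 37.2 and 21.4 CPM in Lipo-BiTE and 3.56, 5.67 and 4.28 CPM in PBS. The groups did not overlap, and the log2 fold changes were 4.95 ± 0.39, 2.91 ± 0.36 and 2.04 ± 0.33 (edgeR adjusted p 3.24e-05, 0.000776 and 0.00733). Lcp2 encodes SLP-76, the cytosolic partner of Lat, which is also used by platelets and myeloid cells. It had 170.4, 197.9 and 180.7 CPM in Lipo-TriTE, 287.8, 194.3 and 88.4 CPM in Lipo-BiTE and 19.2, 13.4 and 15.2 CPM in PBS. The treated groups overlapped widely, and Lipo-BiTE 1 held the highest value of all libraries. Lcp2 rose by 3.53 ± 0.37 in Lipo-TriTE and by 3.58 ± 0.37 in Lipo-BiTE on the log2 scale (edgeR adjusted p 0.000118 and 0.000765), and the treated groups differed by −0.055 ± 0.33 (edgeR adjusted p 0.944).

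Fyb, also called ADAP, links SLP-76 to integrins and is likewise found in myeloid cells. It had 227.6, 209.0 and 212.7 CPM in Lipo-TriTE, 254.0, 135.0 and 82.8 CPM in Lipo-BiTE and 15.1, 17.5 and 17.9 CPM in PBS. Its difference between the treated groups was 0.46 ± 0.31 (edgeR adjusted p 0.395), and without Lipo-BiTE 1 it was 0.96 (edgeR adjusted p 0.0141). Macrophage and monocyte markers summed to 1624 CPM in Lipo-BiTE 1 and to 682 and 766 CPM in Lipo-BiTE 2 and 3, and neutrophil markers to 5956, 2730 and 1075 CPM; their part in these values was not tested. Themis, which sets the strength of receptor signals in thymocytes, and Skap1, the partner of Fyb, were called in all 3 comparisons, with log2 fold changes of 4.60, 2.84 and 1.76 for Themis and 4.21, 2.03 and 2.18 for Skap1. Sh2d2a, an adaptor that binds Lck, rose in both treated groups (3.84 ± 0.39 and 2.90 ± 0.38) and was not called between them (0.95 ± 0.35, edgeR adjusted p 0.112). Its libraries in those groups did not overlap, and DESeq2 called the difference at an adjusted p of 0.0407.

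The transmembrane adaptors Sit1 and Trat1 had the fewest counts of the 32 genes in PBS. Sit1, which dampens receptor signals, had 25.6, 16.1 and 12.8 CPM in Lipo-TriTE, 6.47, 4.29 and 3.34 CPM in Lipo-BiTE and 0.149, 1.12 and 1.43 CPM in PBS, where PBS 1 held 2 counts. Trat1, which stabilises the receptor complex at the surface, had 12.5, 7.49 and 11.9 CPM in Lipo-TriTE, 1.82, 1.73 and 0.582 CPM in Lipo-BiTE and 0, 0.354 and 0.178 CPM in PBS. Its PBS values stand for 0, 6 and 3 counts, and no count in PBS 1 allows up to 0.223 CPM. Both were called in all 3 comparisons, and Trat1 is among the genes counted as higher above. With only the Lipo-BiTE and PBS libraries Trat1 did not pass the filter on low counts, so it was tested through the group where it is high, and its call is a description only. The log2 fold changes of Trat1 were 5.77 ± 0.69, 2.82 ± 0.71 and 2.95 ± 0.56 (edgeR adjusted p 0.000187, 0.0199 and 0.0107), and those of Sit1 4.29 ± 0.56, 2.34 ± 0.55 and 1.95 ± 0.49 (0.000359, 0.0153 and 0.0321). At these counts the calls of Lipo-BiTE against PBS were lost without Lipo-BiTE 1 for Sit1 and for Trat1 (edgeR adjusted p 0.0547 and 0.0675), and for Trat1 also without Lipo-BiTE 2 (0.0663) or PBS 3 (0.063). Between the treated groups, Sit1 was not called without any 1 of the Lipo-TriTE libraries, Lipo-BiTE 2 or Lipo-BiTE 3 (edgeR adjusted p 0.0534 to 0.125).

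All 5 surface receptors rose in every comparison. Cd5 and Cd6 encode related scavenger-receptor proteins that dampen signals from the receptor, and they lie next to each other on the minus strand of chromosome 19 at 8434233 to 8458286 and 8512776 to 8554862 in the deposited table, 54490 bases apart, in an assembly that is not named. Cd5 had 109.6, 70.2 and 67.3 CPM in Lipo-TriTE, 25.1, 23.2 and 17.0 CPM in Lipo-BiTE and 1.63, 2.77 and 2.85 CPM in PBS. No groups overlapped, and the log2 fold changes of 5.07 ± 0.30, 3.15 ± 0.29 and 1.92 ± 0.25 had the smallest adjusted p of the 32 genes for Lipo-TriTE against PBS (edgeR, 5.63e-06). Cd6 changed by 4.25, 2.43 and 1.82 on the log2 scale. Cd2, an adhesion receptor that strengthens T cell contacts, changed by 4.79, 2.72 and 2.07, and Cd96, which binds a nectin-like ligand and is shared with NK cells, by 4.66, 2.73 and 1.92. Thy1, a surface glycoprotein of mouse T cells that fibroblasts and other cells also carry, averaged 252.5 ± 91.6 CPM in Lipo-TriTE, 94.8 ± 37.5 CPM in Lipo-BiTE and 16.01 ± 4.28 CPM in PBS (SD, n = 3 each). Its log2 fold changes were 3.98, 2.56 and 1.41. Between the treated groups, Cd6, Cd96 and Thy1 were not called without Lipo-BiTE 2 (edgeR adjusted p 0.0583, 0.0509 and 0.108), nor Thy1 without Lipo-TriTE 1 or Lipo-TriTE 3 (0.0564 and 0.0513).

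Of the 4 enzymes and exchange factors, 3 rose in both treated groups and 0 were called between them at an adjusted p under 0.05. Vav1, an exchange factor for Rac found across blood cells, had 203.4, 133.0 and 126.0 CPM in Lipo-TriTE, 198.9, 100.5 and 60.7 CPM in Lipo-BiTE and 8.02, 8.74 and 12.5 CPM in PBS. Its log2 fold changes were 3.98 ± 0.43 and 3.62 ± 0.42 against PBS, and 0.36 ± 0.37 between the treated groups, whose libraries overlapped (edgeR adjusted p 0.598). Rasgrp1, the exchange factor that couples diacylglycerol to Ras, rose by 4.37 and 3.56 on the log2 scale, and Itpkb, which phosphorylates inositol trisphosphate, by 3.93 and 3.37. Between the treated groups they differed by 0.81 ± 0.36 and 0.56 ± 0.43 (edgeR adjusted p 0.19 and 0.464), and Rasgrp1 was called there without Lipo-BiTE 1 (1.31, adjusted p 0.019).

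Plcg1, the phospholipase C recruited by Lat, did not follow. It had 218.3, 176.6 and 170.2 CPM in Lipo-TriTE, 161.7, 179.2 and 193.2 CPM in Lipo-BiTE and 159.1, 201.8 and 208.0 CPM in PBS. All 3 groups overlapped, and the log2 fold changes were −0.0094 ± 0.16, −0.091 ± 0.16 and 0.082 ± 0.16 (edgeR adjusted p 0.971, 0.726 and 0.793). Plcg1 is expressed in most tissues, epithelia included, and lies over Zhx3 on the opposite strand, whose counts came to 10.8% of those of Plcg1; whether reads were assigned by strand is not stated, so reads of overlapping genes cannot be told apart. The other members with an overlapping gene of more than 2% of their counts were Dgkz with Gm9821 (8.29%), Skap1 with 2010300F17Rik (3.59%) and Dgka with Pmel (2.59%).

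The 6 negative regulators split, with 4 higher in both treated groups and 2 of 6 higher in Lipo-TriTE than in Lipo-BiTE. Dgka and Dgkz both turn diacylglycerol into phosphatidic acid and so end its signal. Dgka had 443.9, 222.3 and 262.5 CPM in Lipo-TriTE, 101.4, 58.9 and 40.1 CPM in Lipo-BiTE and 13.3, 12.5 and 13.2 CPM in PBS, with no overlap. It rose by 4.57 ± 0.38 and 2.36 ± 0.35 against PBS and was 2.21 ± 0.34 higher in Lipo-TriTE than in Lipo-BiTE on the log2 scale (edgeR adjusted p 4.05e-05, 0.00136 and 0.00604). Dgkz had 352.0, 238.2 and 164.6 CPM in Lipo-TriTE, 365.6, 284.5 and 274.2 CPM in Lipo-BiTE and 156.0, 238.6 and 237.2 CPM in PBS. It was called in no comparison (0.26 ± 0.27, 0.55 ± 0.27 and −0.29 ± 0.26 on the log2 scale; edgeR adjusted p 0.491, 0.181 and 0.538), although its Lipo-BiTE libraries all lay above those of PBS.

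Ptpn22, a phosphatase that acts on Lck and Zap70, averaged 94.7 ± 26.4 CPM in Lipo-TriTE, 38.7 ± 17.9 CPM in Lipo-BiTE and 5.54 ± 1.59 CPM in PBS (SD, n = 3 each). It was called in all 3 comparisons (4.09, 2.79 and 1.29 on the log2 scale), and between the treated groups its edgeR adjusted p of 0.0385 became 0.0509 to 0.137 without Lipo-TriTE 1, Lipo-TriTE 3, Lipo-BiTE 2, Lipo-BiTE 3 or PBS 3. Ubash3a, listed here as a negative regulator, rose by 3.88 and 2.38, and Ptpn7, a phosphatase of MAP kinases, by 2.48 and 1.77. Neither was called between the treated groups (1.51 ± 0.45 and 0.71 ± 0.29, edgeR adjusted p 0.0584 and 0.143); DESeq2 called Ubash3a there at an adjusted p of 0.00741, edgeR called it without PBS 1 or PBS 2 (0.0329 and 0.0236), and edgeR called Ptpn7 without Lipo-BiTE 1 at 0.00652. Cblb, a ubiquitin ligase that restrains T cell activation and is widely expressed, averaged 85.3 ± 14.5 CPM in Lipo-TriTE, 98.6 ± 4.69 CPM in Lipo-BiTE and 87.6 ± 17.4 CPM in PBS. Its log2 fold changes of −0.039 ± 0.17, 0.17 ± 0.17 and −0.21 ± 0.17 were not called (edgeR adjusted p 0.886, 0.53 and 0.492).

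Of the NF-kappaB branch and NFAT factors, 3 of 4 rose in both treated groups and 0 of 4 differed between those groups at an adjusted p under 0.05. Malt1, a paracaspase, had 122.9, 81.4 and 84.6 CPM in Lipo-TriTE, 120.7, 78.4 and 45.2 CPM in Lipo-BiTE and 22.9, 18.1 and 21.7 CPM in PBS. The treated groups overlapped, and the log2 fold changes against PBS were 2.20 ± 0.32 and 1.96 ± 0.32 (edgeR adjusted p 0.000717 and 0.00219). Bcl10, its partner in the signalling filament, had 68.7, 79.0 and 95.1 CPM in Lipo-TriTE, 88.1, 73.6 and 68.5 CPM in Lipo-BiTE and 88.5, 71.6 and 68.6 CPM in PBS. All groups overlapped, and the log2 fold changes of 0.087, 0.0097 and 0.077 had SEs of 0.17 each. Nfatc1 and Nfatc2, factors that calcium moves into the nucleus, rose by 2.73 and 2.85 in Lipo-TriTE and by 2.49 and 2.35 in Lipo-BiTE, and differed by 0.24 ± 0.32 and 0.50 ± 0.38 between the treated groups (edgeR adjusted p 0.705 and 0.459).

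The order of levels among the genes also differed between groups. Per kilobase of the deposited gene length, as mean RPKM, Thy1 led in Lipo-TriTE with 142.9, followed by Dgka with 110.2 and Lck with 83.6, whose SDs of 51.9, 42.0 and 29.9 exceed the gaps between them. In Lipo-BiTE Thy1 with 53.7 was followed by Dgkz with 49.1 and Lcp2 with 43.7, whose SDs of 21.2, 7.98 and 22.9 exceed the gaps between them. In PBS the 4 genes that were called in no comparison led the order, Dgkz with 33.6, Plcg1 with 24.1, Bcl10 with 16.7 and Cblb with 13.6 RPKM.

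In addition, 5 pairs of genes, chosen after their values were seen, were compared as ratios. The CPM ratio of Dgka to Dgkz, uncorrected for length, was 1.26, 0.933 and 1.59 in Lipo-TriTE, 0.277, 0.207 and 0.146 in Lipo-BiTE and 0.0852, 0.0524 and 0.0556 in PBS. The ratio of Lck to Fyn averaged 1.45 ± 0.109 in Lipo-TriTE, 0.865 ± 0.162 in Lipo-BiTE and 0.323 ± 0.0504 in PBS (SD, n = 3 each). The groups overlapped for neither pair. These ratios restate the changes of the single genes given above, where Dgkz was called in no comparison and Fyn changed less than Lck. In bulk tissue, a change within T cells and a change in the mix of cells cannot be told apart. Nfatc1 to Nfatc2 averaged 2.56 ± 0.394, 3.00 ± 0.662 and 2.88 ± 1.34 in the same groups, which overlapped. Lck to Lcp2 averaged 1.36 ± 0.578, 0.397 ± 0.121 and 0.789 ± 0.182 in the same groups, without overlap, and Lat to Vav1 0.890 ± 0.132, 0.315 ± 0.0818 and 0.479 ± 0.156. For both of these pairs the mean in Lipo-BiTE lay below that in PBS, and for Lat to Vav1 the libraries of Lipo-BiTE and PBS overlapped.

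**Figure D4:**
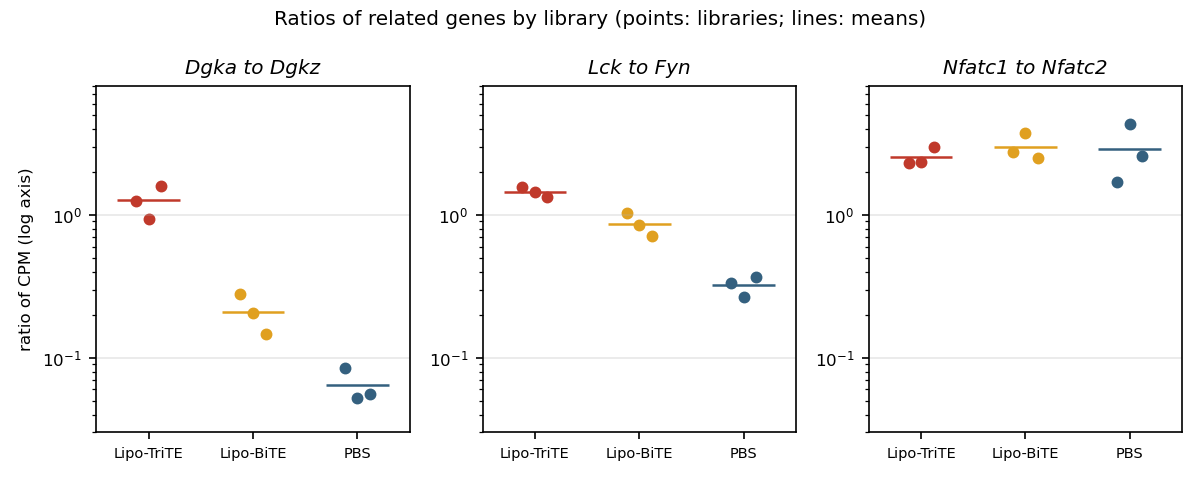
Ratio of CPM of 3 pairs of related genes (log axis) in Lipo-TriTE, Lipo-BiTE and PBS; each point is 1 library and each line the mean of 3. Dgka to Dgkz and Lck to Fyn step down from Lipo-TriTE through Lipo-BiTE to PBS without overlap, and Nfatc1 to Nfatc2 lies between 1.71 and 4.35 in every group.

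Each gene was then set against the CD3 transcripts of its own library. Counts of Cd3d, Cd3e and Cd3g together were 8188, 3695 and 4280 in Lipo-TriTE, 1206, 959 and 658 in Lipo-BiTE and 220, 240 and 207 in PBS. With these sums as the offset in edgeR, 0 of 32 genes were called higher and 10 lower in Lipo-TriTE against PBS, where 0.603% of all genes were called higher and 91.3% lower. For Lipo-BiTE against PBS, 5 were called higher and 5 lower, where 2.34% and 81.6% of all genes were. In Lipo-TriTE against Lipo-BiTE, 0 were called higher and 15 lower, where 1.51% and 82.6% of all genes were. Counts at an unadjusted p under 0.05 were the same, which is no separate check. With most genes called lower, the adjustment raised p little, as for Fyb in Lipo-BiTE against PBS (edgeR p 0.0372, adjusted 0.0445). DESeq2 was not run with this offset. All genes share the deviation of the CD3 sum in a library, so calls on this scale are not independent of each other. The counting error of the CD3 sum, which is small in PBS, is not in the SEs and p-values on this scale. For these genes, p on this scale equalled that of a normal curve at the log2 fold change over its SE. No allowance for the few libraries enters it, so calls near the threshold, such as that of Fyb, are weaker than p states.

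For the 16 genes found mostly in T and NK cells, the calls on this scale depended on the denominator. With the CD3 sum, 0 were called for Lipo-TriTE versus PBS, 1 higher (Rasgrp1) for Lipo-BiTE versus PBS and 2 lower (Rasgrp1 and Sh2d2a) for Lipo-TriTE versus Lipo-BiTE. Per Trac, Trbc1 and Trbc2 count, 8 were called lower and 0 higher for Lipo-TriTE versus PBS: Lck, Zap70, Txk, Skap1, Sh2d2a, Cd6, Rasgrp1 and Ubash3a. Their log2 fold changes ran from −1.46 for Sh2d2a to −0.93 for Rasgrp1 (edgeR adjusted p 0.000949 and 0.0356), with Lck at −1.01 (0.016). For Lipo-BiTE versus PBS that denominator gave 2 lower (Skap1 and Txk) and 0 higher. Set against the CD3 sum, Trbc2 was itself called higher for Lipo-TriTE versus PBS (log2 fold change 1.36, edgeR adjusted p 0.00235). It was also called higher for Lipo-BiTE versus PBS (0.98, edgeR adjusted p 0.0323). Trac at 0.51 and 0.72 and Trbc1 at 0.76 and 0.52 were not called. The share of all genes called per Trac, Trbc1 and Trbc2 count is not given here. Per Cd3e count, 0 of the 16 were called in any comparison, and between the treated groups Rasgrp1 stood at −0.99 and Sh2d2a at −0.95 (edgeR adjusted p 0.0514 and 0.0633). With the CD3 sum and without PBS 1, Sh2d2a and Txk were called lower for Lipo-TriTE versus PBS and Txk for Lipo-BiTE versus PBS; without PBS 2, Trat1 was called higher for Lipo-TriTE versus PBS (edgeR adjusted p 0.0496). Per 100 CD3 counts, Lck had 86.99, 85.7 and 67.8 counts in Lipo-TriTE, 97.2, 89.5 and 99.1 in Lipo-BiTE and 69.1, 78.8 and 116.4 in PBS. Skap1 averaged 19.9 ± 0.817, 18.6 ± 0.303 and 23.2 ± 5.24 counts per 100 in the same groups, and Prkcq 28.8 ± 3.07, 26.9 ± 3.34 and 22.7 ± 0.555 (SD, n = 3 each). Dgka, counted among the genes of other cells too, had 100.4 ± 9.76, 90.7 ± 13.8 and 92.3 ± 13.4. A missed threshold does not show that these levels were alike.

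The genes called higher per CD3 transcript in Lipo-BiTE against PBS were Lcp2, Vav1, Rasgrp1, Itpkb and Fyb, with log2 fold changes of 1.18 ± 0.38, 1.16 ± 0.40, 1.15 ± 0.41, 0.91 ± 0.41 and 0.80 ± 0.38 (edgeR adjusted p 0.00294, 0.00433, 0.00703, 0.0325 and 0.0445). Lcp2 had 302.4, 269.3 and 184.7 counts per 100 CD3 counts in Lipo-BiTE, against 117.3, 94.6 and 123.2 in PBS; in Lipo-TriTE it had 42.9, 84.4 and 65.2. Macrophage and monocyte markers were called higher on the same scale for 5 of 7 genes and neutrophil markers for 5 of 5; their part in the result was not tested. The 5 calls depend on the denominator and on single libraries: the count was 0 per Trac, Trbc1 and Trbc2 count and 1 per Cd3e count, and 3 without Lipo-BiTE 1, Lipo-BiTE 2 or PBS 1. In Lipo-TriTE against PBS the lower call of Lcp2 (−0.80 ± 0.38, edgeR adjusted p 0.0388) was lost without Lipo-TriTE 1, Lipo-TriTE 3, Lipo-BiTE 2 or any 1 PBS library (0.0532 to 0.165). Plcg1, Cblb, Dgkz, Bcl10 and Fyn were called lower per CD3 transcript in all 3 comparisons; for Fyn the call of Lipo-TriTE against Lipo-BiTE was lost per Cd3e count (−0.85, edgeR adjusted p 0.083). Bcl10 had 17.3, 33.7 and 34.3 counts per 100 in Lipo-TriTE, 92.5, 102.0 and 143.2 in Lipo-BiTE and 541.8, 505.4 and 557.5 in PBS. Such a fall is what most genes of the table showed on this scale, with medians of −4.35, −2.26 and −2.13.

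**Figure D5:**
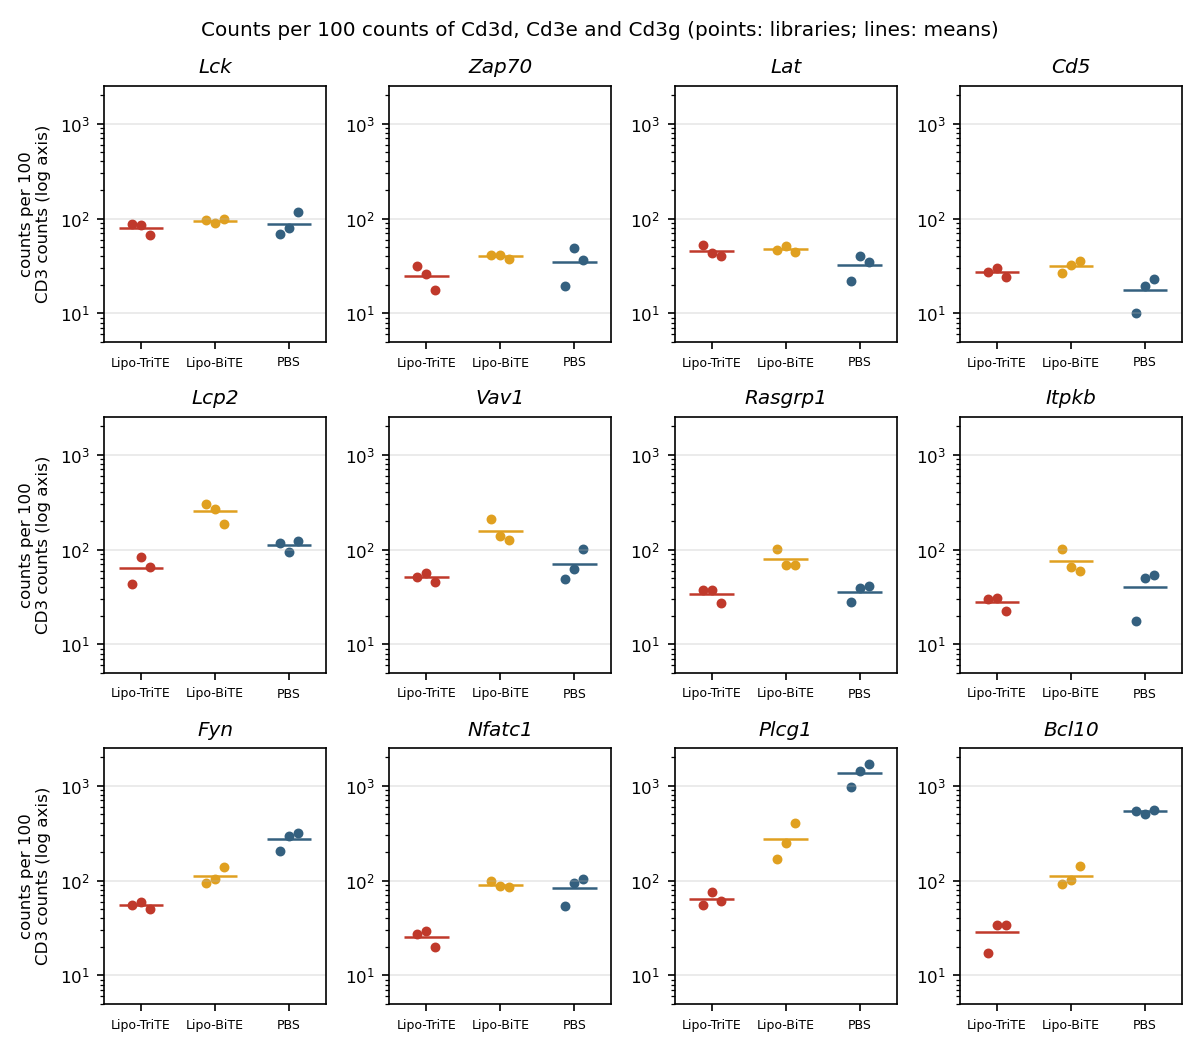
Counts of 12 of the genes per 100 counts of Cd3d, Cd3e and Cd3g (log axis) in Lipo-TriTE, Lipo-BiTE and PBS; each point is 1 library and each line the mean of 3. Lck, Zap70, Lat and Cd5 lie between 10 and 116.4 in every group, Lcp2, Vav1, Rasgrp1 and Itpkb are highest in Lipo-BiTE, and Fyn, Plcg1 and Bcl10 are highest in PBS.

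Summed over the 32 genes, counts per CD3 count averaged 12.2 ± 1.16 in Lipo-TriTE, 29.5 ± 2.18 in Lipo-BiTE and 57.5 ± 14.6 in PBS (SD, n = 3 each). The log2 differences were −2.21, −0.93 and −1.27 for Lipo-TriTE versus PBS, Lipo-BiTE versus PBS and Lipo-TriTE versus Lipo-BiTE, each with p = 0.1 in an exact two-sided permutation test, the smallest that 3 against 3 libraries can give. Over the 16 genes mostly of T and NK cells alone, the averages were 4.30 ± 0.512, 5.68 ± 0.289 and 4.48 ± 1.38, and the differences −0.014, 0.39 and −0.41 (exact p = 1, 0.2 and 0.1).

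Other genes of the pathway, in lists that hold none of the 32, moved in part. Of 6 other kinases tested, 6 rose in Lipo-TriTE against PBS, where 18.9% of all genes were called higher and 14.8% lower. Map4k1, a kinase of blood cells that restrains receptor signals, averaged 90.6 ± 39.7 CPM in Lipo-TriTE, 49.7 ± 19.7 CPM in Lipo-BiTE and 8.63 ± 0.421 CPM in PBS. Of 17 other adaptors, 11 rose and 1 fell in Lipo-TriTE against PBS. Grap2, which joins SLP-76 to Lat, had a log2 fold change of 4.28 ± 0.36, and Tespa1, an adaptor of thymocyte signalling, of 4.24 ± 0.40, whereas Nck2, an actin-linked adaptor of many cell types, fell by 0.72 ± 0.16 (edgeR adjusted p 0.00684). Of 12 phosphatases and ubiquitin ligases, 5 rose and 1 fell. Ptprc encodes CD45, a phosphatase of all leukocytes, and averaged 1456 ± 258 CPM in Lipo-TriTE, 942.0 ± 549 CPM in Lipo-BiTE and 88.6 ± 14.05 CPM in PBS. The ligase Rnf128 fell to 11.2 ± 2.76 CPM in Lipo-TriTE, against 21.7 ± 3.10 CPM in Lipo-BiTE and 21.7 ± 5.17 CPM in PBS (edgeR adjusted p 0.0333 and 0.0122).

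Genes further downstream were counted in the same way. Of 13 calcium and calcineurin genes, 6 rose and 2 fell in Lipo-TriTE against PBS. Stim1, a calcium sensor of the endoplasmic reticulum, rose by 1.27 ± 0.23 and the channel gene Orai2 by 1.40 ± 0.25 on the log2 scale, and Stim2 and Ppp3ca fell by 0.48 ± 0.13 and 0.37 ± 0.13 (edgeR adjusted p 0.0137 and 0.045). Of 16 Ras and MAP kinase genes, 4 rose and 3 fell. The blood cell regulators Rasgrp2 and Rasal3 rose by 4.41 ± 0.52 and 4.53 ± 0.50, and Hras and Nras, used by most cells, fell by 1.00 ± 0.14 and 0.65 ± 0.15. Of 12 further genes of the NF-kappaB branch, 6 rose and 0 fell, among them Tnfaip3, an inducible brake of NF-kappaB, by 2.48 ± 0.32. Of 15 actin regulators, 9 rose and 0 fell, among them Rhoh by 4.20 ± 0.41 and Arhgef6 by 4.03 ± 0.34. Of all genes tested in that comparison, 18.9% were called higher and 14.8% lower. The falls among calcium and Ras genes lay near that share, and those of the other lists below it. The rises among Ras and MAP kinase genes lay near the share called higher.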

How the data were processed

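RNA was extracted from frozen tumours with Trizol and spin columns, and fragmented mRNA was copied with random hexamers into libraries, with no mention of molecular identifiers, per the labels' protocols. The authors deposited unnormalised counts of reads for 44806 entries in 9 columns of whole numbers, per the file headers and the values. The aligner, the counter, the genome build and the use of strand are not stated; identifiers name C57BL/6NJ gene models. Entries of unnamed loci, 3710 in all, took 1.17% to 2.14% of the counts.

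Tests used edgeR 4.0.16 (R 4.3.3) with filterByExpr, TMM scaling and the robust quasi-likelihood F test, fitting 1 mean for each group to the 9 libraries. The 16596 tested genes shared a Benjamini-Hochberg adjustment, and an adjusted p under 0.05 was a call. Each SE is the log2 fold change divided by the root of F. The same test was run with the log of summed Cd3d, Cd3e and Cd3g counts as offset. With that offset, p of the listed genes was that of a normal curve, unlike on the total scale. Single ratios were compared by exact permutation tests. CPM are on TMM-scaled totals, and RPKM divide them by the deposited gene length. Promoter windows came from RefSeq (GRCm38.p6), matched by symbol, and no coordinate was carried between assemblies.

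The genes, the lists, the tests and the alternatives were chosen with earlier results of these data known. The rule for named genes takes all 33 listed genes, and of each further pathway list up to 2 genes called higher and up to 2 called lower with the smallest p in Lipo-TriTE against PBS. Some genes this rule picked are not reported here. Alternatives were DESeq2 1.42.0, RLE scaling, total counts, other filters, other CD3 denominators, only the groups compared, a replicate block and each library left out. The scripts were tested on simulated counts in which few genes changed. A 2-fold change was called for 36% to 43% of changed genes on the total scale and 26.3% to 34.7% per CD3 transcript. For a 4-fold change these were 76% to 86% and 80% to 84.8%. The lack of a call therefore does not show that a gene was alike between groups. Replicate numbers did not pair the libraries: deviations of same-numbered libraries correlated with r from −0.194 to 0.0755. No pair of libraries within a group agreed within sampling noise.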

Additional observations from a re-analysis of the deposited data

How the results depend on the processing

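The counts of genes called against PBS, and the absence of lower calls on the total scale, kept within 1.5 times under every alternative run. In Lipo-TriTE against Lipo-BiTE the 16 higher calls became 9 to 20 with libraries left out (9 without Lipo-BiTE 2). Per CD3 transcript in Lipo-TriTE against PBS, the 10 lower calls became 23 per Trac, Trbc1 and Trbc2 count, and the 0 higher calls ran from 0 to 1 (1 without PBS 2). In Lipo-BiTE against PBS, the 5 higher calls became 0 per Trac, Trbc1 and Trbc2 count and 1 per Cd3e count, with a range of 3 to 5 over libraries left out, and the 5 lower calls became 10 per Trac, Trbc1 and Trbc2 count. The ratio of summed genes to CD3 for Lipo-BiTE against PBS reversed to 0.39 with only the genes mostly of T and NK cells, an alternative chosen after the data were seen. The shares of all genes called with the other denominators are not given here. Causes were not tested.

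On the total scale, directions turned only for log2 fold changes that were not called. For Lipo-TriTE against PBS, Plcg1 was 0.035 with DESeq2, 0.035 with RLE and 0.024 with the 1 CPM filter, and Cblb 0.0066 with DESeq2 and 0.0066 with RLE. For Lipo-BiTE against PBS, Bcl10 was −0.13 with total counts, −0.0032 without filter and −0.0090 with the 1 CPM filter. For Lipo-TriTE against Lipo-BiTE, Lcp2 was 0.11 with total counts. With libraries left out, Lipo-TriTE against PBS ran from −0.14 to 0.070 for Plcg1, −0.21 to 0.098 for Cblb, −0.050 to 0.48 for Dgkz and −0.057 to 0.21 for Bcl10, and Lipo-BiTE against PBS from −0.098 to 0.12 for Bcl10. Lipo-TriTE against Lipo-BiTE ran from −0.36 to 0.34 for Lcp2, −0.016 to 0.18 for Plcg1, −0.0095 to 0.61 for Malt1, −0.065 to 0.21 for Bcl10 and −0.062 to 0.55 for Nfatc1. Without a filter Dgkz was called higher in Lipo-BiTE against PBS (0.53, edgeR adjusted p 0.0215).

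With the replicate block, which is not part of the design since numbers did not pair the libraries, the higher calls were 28, 28 and 16, and per CD3 transcript the lower calls were 11, 5 and 17 and the higher 0, 6 and 0. Between the treated groups the block moved Lcp2 to 0.063, Sit1 out of the calls (adjusted p 0.0643) and Zap70 into them (0.0453). Total counts in place of TMM shifted the median of all genes to −0.16 in Lipo-BiTE against PBS and to 0.11 in Lipo-TriTE against Lipo-BiTE, and the split of higher to lower calls over all genes to 2079 and 988, against 2283 and 534, and to 1099 and 451, against 810 and 865. Depth was low for the values that rest on 207 to 240 CD3 counts or on 0 to 6 Trat1 counts in PBS. The other denominators were shallower there. In PBS 1, 2 and 3, Cd3e had 38, 69 and 80 counts and Trac 40, 124 and 82. Trbc1 had 46, 47 and 28 counts in the same libraries, and Trbc2 23, 54 and 33.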
